A study of Mus musculus with 6 samples.

Results

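Transcripts of hepatic stellate cells and of the myofibroblasts they give rise to were followed through 10 genes, matched by symbol to the Ensembl identifiers of the count files, out of 54232 genes listed there and 13986 with enough counts to be tested. The genes were Lrat, Reln and Des, which mark stellate cells in the resting liver, the platelet-derived growth factor (PDGF) receptor genes Pdgfra and Pdgfrb, the cytoskeletal genes Acta2, Tagln and Vim, and the transforming growth factor beta (TGF-beta) ligand genes Tgfb1 and Tgfb3. Liver RNA of male C57BL/6 mice on a chow diet, 8 to 10 weeks old, was sequenced in 2 groups of 3 libraries. FXR, the bile acid receptor that Nr1h4 encodes, was missing from all of these mice. The SKO group (Fxr-/-Xbp1fl/fl) kept floxed Xbp1 alleles. The DKO group (Fxr-/-Xbp1LKO) in addition lacked Xbp1, whose product regulates the response to unfolded proteins, in the liver (Cre driver not given in the sources used here). The comparison of DKO with SKO addressed the effect of losing Xbp1 from the liver where FXR is absent, and a group with intact FXR was not analysed here. The sources do not say that libraries of a group came from separate mice, so p-values measure only the spread between these libraries.

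Hepatic stellate cells lie between the sinusoidal endothelium and the hepatocytes and store vitamin A as retinyl esters. After liver injury they can lose this store, divide and become myofibroblasts, which contract and deposit collagen matrix. PDGF acting on its receptors is a known mitogen for these cells, and TGF-beta is the ligand best known for driving their matrix production.

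Total counts per library ran from 16966422 to 21107674, and levels are given as counts-per-million (CPM) after TMM scaling, which corrects library size for composition. A count of 0 allows up to 3 counts, or 0.126 to 0.191 CPM here. Xbp1 itself went from 247 to 77.1 CPM, and Nr1h4 was at 98.6 in the SKO mean and 97.4 in the DKO mean. Reads of Nr1h4 were thus counted in both groups (extent of the Fxr deletion not given in the sources used here). DKO replicate 1 stood apart. In a list of 14 skeletal muscle genes, chosen after the values were seen, its summed level was 78.7 CPM against 0.274 to 0.635 CPM in the other 5 libraries.

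All 10 genes had enough counts to be tested, and 5 of them, Des, Pdgfra, Pdgfrb, Vim and Tgfb3, were higher in DKO at an edgeR adjusted p under 0.05, while 0 were lower. Among all genes tested, 10.3% were called higher and 9.70% lower. At an unadjusted p under 0.05, 7 of the 10 genes were higher and 0 were lower. The share of all genes at that unadjusted threshold was not counted, here or for the lists below. It cannot be less than the 10.3% of adjusted calls, so the unadjusted counts have no background here. DESeq2 called 6 higher, against 9.97% of its genes, and 0 lower. The fitted log2 fold change was above 0 for all 10 genes, with a median of 0.71 against 0.0059 over all genes tested. In 7 of the 10 genes every DKO library lay above every SKO library, which was the case for 20.2% of all genes tested. All 10 genes were highest in DKO replicate 1, the library with the muscle transcripts, which was the highest library for 26.6% of all genes tested. In marker lists described further on, it was highest for 16 of 18 macrophage, 13 of 15 portal fibroblast and 12 of 14 cholangiocyte genes. It was highest for 3 of 14 endothelial and 0 of 14 hepatocyte genes. Without that library 3 of the 10 genes were called higher, Pdgfra, Pdgfrb and Vim, against 6.96% of the genes then tested. SKO replicate 1 was the lowest library for each of the 10 genes except Acta2 and Tgfb1. Without SKO replicate 1, Reln, Pdgfra and Vim were called higher, against 1142 of the 14384 genes then tested. Without SKO replicate 2 only Pdgfra and Vim were called, and calls fell among all genes too, to 674 higher of 14315 tested against 1446 of 13986. In liver tissue, more stellate cells and more RNA per stellate cell cannot be told apart.

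**Figure D1:**
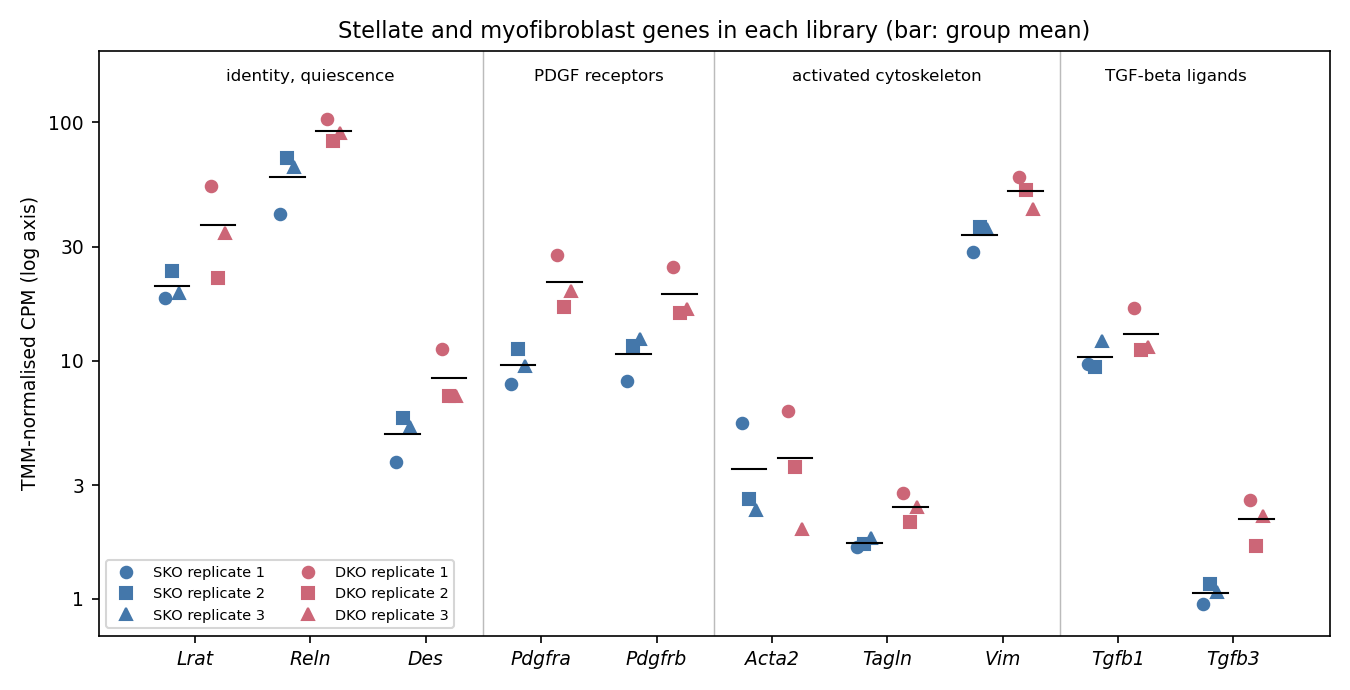
Level of each of the 10 genes in CPM in every library, SKO in blue and DKO in red, with a bar at the group mean. DKO replicate 1 is the highest library in all 10 genes, and the groups overlap in Lrat, Acta2 and Tgfb1.

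The 250 bases before the transcription start were read for 7 of the 10 genes from RefSeq on GRCm38.p6. Pdgfrb, Tagln and Tgfb3 are named only. The windows of Lrat, Des and Pdgfra are shown because they stand before genes of the 3 behaviours met here, namely a library-dependent difference, a call that rests on single libraries and a call that held in every fit. None of the 3 windows holds annotated exon bases. They lie at chr3:82903975-82904224 on the minus strand, chr1:75360042-75360291 on the plus strand and chr5:75152001-75152250 on the plus strand, respectively, and are written 5′ to 3′ on the strand of the gene. Capitals mark matches, on either strand, to the E-box CANNTG, the CCAAT box CCAAT, the GC box GGGCGG or the SMAD-type motif CAGAC.
Lrat: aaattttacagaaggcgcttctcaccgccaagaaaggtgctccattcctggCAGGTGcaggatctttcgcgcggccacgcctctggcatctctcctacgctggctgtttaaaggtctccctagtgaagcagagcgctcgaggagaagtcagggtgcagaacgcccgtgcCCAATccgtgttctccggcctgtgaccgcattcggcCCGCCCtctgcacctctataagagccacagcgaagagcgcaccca
Des: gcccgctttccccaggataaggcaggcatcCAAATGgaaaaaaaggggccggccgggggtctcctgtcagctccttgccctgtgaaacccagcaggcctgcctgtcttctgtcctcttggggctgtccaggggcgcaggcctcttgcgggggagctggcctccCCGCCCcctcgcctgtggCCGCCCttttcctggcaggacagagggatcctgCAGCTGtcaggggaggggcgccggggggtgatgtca
Pdgfra: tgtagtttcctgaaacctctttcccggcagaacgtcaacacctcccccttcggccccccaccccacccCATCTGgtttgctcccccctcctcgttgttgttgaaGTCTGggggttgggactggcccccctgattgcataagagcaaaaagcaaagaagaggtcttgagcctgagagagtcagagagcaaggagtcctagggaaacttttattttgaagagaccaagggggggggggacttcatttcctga

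The Lrat window held 1 E-box, 1 CCAAT box and 1 GC box, the Des window held 2 E-boxes and 2 GC boxes, and the Pdgfra window held 1 E-box and 1 SMAD-type match. Of 32851 promoter windows of the same length, 66.2% held an E-box, 33.8% a CCAAT box, 32.7% a GC box and 42.2% the SMAD-type motif. The AP-1 motif TGANTCA, present in 6.75% of all windows, the TATA box TATAAA, present in 12.4%, and the CArG box, present in 1.47%, were also searched. None of the 3 motifs was in the windows printed, and no CArG box was in any of the 7 windows. Of the 250 bases, however, 217 in the Acta2 window and all 250 in the Vim window are annotated exon bases. For these 2 genes the search therefore says little about the sequence before the annotated gene. A match is a description of the letters and not a site.

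Of the 3 genes that mark stellate cells in resting liver, Des was called higher and Lrat and Reln were not, and the median log2 fold change was 0.78. Lrat (ENSMUSG00000028003, chr3:82892579-82903973, minus strand) encodes lecithin retinol acyltransferase, which makes the retinyl esters that stellate cells store. Its level was 18.3, 23.9 and 19.3 CPM in the SKO libraries and 54.1, 22.3 and 34.4 CPM in the DKO libraries. DKO replicate 1 was far above the other 5 libraries, and DKO replicate 2 lay within the SKO range. The mean went from 20.5 ± 2.97 to 36.9 ± 16.1 CPM (SD, n = 3 each), a log2 fold change of 0.85 ± 0.35 (SE) with an edgeR adjusted p of 0.156. The log2 fold change was 0.47 without DKO replicate 1 and 1.11 without DKO replicate 2, and of all 13 alternatives only the latter called the gene (edgeR adjusted p = 0.0135).

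Reln (ENSMUSG00000042453, chr5:21884454-22344702, minus strand) encodes reelin, a secreted glycoprotein that stellate cells make in the liver. It was at 41.3, 71.1 and 65.1 CPM in SKO and at 103, 83.3 and 90.5 CPM in DKO. The groups did not overlap, and SKO replicate 1 was the lowest library by a wide margin. The means were 59.2 ± 15.7 and 92.2 ± 9.93 CPM (SD, n = 3 each), and the log2 fold change of 0.64 ± 0.20 did not pass (edgeR adjusted p = 0.0704). Without SKO replicate 1 the log2 fold change was 0.44 and the gene passed (edgeR adjusted p = 0.019). It also passed in DESeq2 (adjusted p = 0.00275) and in limma-voom (adjusted p = 0.0361).

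Des (ENSMUSG00000026208, chr1:75360329-75368579, plus strand) encodes desmin, an intermediate filament protein of muscle that in rodent liver also marks stellate cells. Its level was 3.75, 5.76 and 5.24 CPM in SKO and 11.1, 7.09 and 7.11 CPM in DKO. DKO replicates 2 and 3 were nearly equal and above every SKO library, and DKO replicate 1 was higher still. The mean rose from 4.92 ± 1.04 to 8.45 ± 2.33 CPM (SD, n = 3 each), and the log2 fold change was 0.78 ± 0.22 (edgeR adjusted p = 0.0372). Skeletal muscle transcripts were present in DKO replicate 1, where Acta1, the skeletal muscle actin gene, had 326 counts (13.7 CPM) and Ckm, muscle creatine kinase, had 7.19 CPM. In the other 5 libraries Acta1 had at most 2 counts and Ckm had 0. Leaving out DKO replicate 1 gave a log2 fold change of 0.52 for Des, with the other DKO libraries still above every SKO library, and the call was lost (edgeR adjusted p = 0.0924). The call was also lost without any one of the SKO libraries (edgeR adjusted p from 0.0604 to 0.0947) and in limma-voom (adjusted p = 0.0549).

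Both PDGF receptor genes were called higher in DKO, with log2 fold changes of 1.16 and 0.83. Pdgfra (ENSMUSG00000029231, chr5:75152292-75198215, plus strand) encodes the alpha receptor. It was at 8.01, 11.2 and 9.52 CPM in SKO and at 27.8, 16.9 and 19.7 CPM in DKO. The lowest DKO library was well above the highest SKO library. The mean rose from 9.58 ± 1.59 to 21.5 ± 5.70 CPM (SD, n = 3 each), a log2 fold change of 1.16 ± 0.20 and a 2.24-fold difference (edgeR adjusted p = 0.00686), the largest log2 fold change of the 10 genes. It was called in the main analysis and in all 13 alternatives, and leaving out 1 library gave log2 fold changes of 0.93 to 1.31.

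Pdgfrb (ENSMUSG00000024620, chr18:61045150-61085061, plus strand) encodes the beta receptor, the form best known on stellate cells and pericytes. Its level was 8.20, 11.5 and 12.3 CPM in SKO and 24.6, 15.8 and 16.5 CPM in DKO. The groups did not overlap, and DKO replicates 2 and 3 were closer to SKO than DKO replicate 1 was. The mean rose from 10.7 ± 2.16 to 19.0 ± 4.91 CPM (SD, n = 3 each), and the log2 fold change was 0.83 ± 0.21 (edgeR adjusted p = 0.0284). The call was lost without SKO replicate 1 (edgeR adjusted p = 0.0593) and without SKO replicate 2 (edgeR adjusted p = 0.0792), and held in the other alternatives.

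The 3 cytoskeletal genes did not behave alike: Vim was called higher, Tagln was not called although its groups did not overlap, and the groups overlapped in Acta2. Acta2 (ENSMUSG00000035783, chr19:34241090-34255590, minus strand) encodes alpha smooth muscle actin, the most used marker of activated stellate cells, also made by vascular smooth muscle. Its level was 5.47, 2.63 and 2.37 CPM in SKO and 6.14, 3.57 and 1.97 CPM in DKO, from 38 to 146 counts. In each group 1 library, SKO replicate 1 and DKO replicate 1, was well above the other two, and the lowest library of all was DKO replicate 3. The means were 3.49 ± 1.72 and 3.89 ± 2.10 CPM (SD, n = 3 each), and the log2 fold change of 0.19 ± 0.47 did not pass (edgeR adjusted p = 0.819). The sign itself depended on single libraries, with a log2 fold change of -0.31 without DKO replicate 1 and 0.65 without SKO replicate 1. Its SE was the largest of the 10 genes.

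The wider contractile list, described further on, had 6 of 20 tested genes called higher, and the 3 smooth muscle genes given here do not stand for it. Myh11, smooth muscle myosin heavy chain, was at 2.93 to 3.94 CPM in SKO and 2.54 to 3.57 CPM in DKO (log2 fold change -0.09, edgeR adjusted p = 0.797). Cnn1, calponin, and Actg2, enteric smooth muscle actin, were too low to be tested, and both were highest in SKO replicate 1, at 0.636 and 0.445 CPM. That library also had the highest Acta2 level of SKO, and the part of vessel wall in the Acta2 values was not tested. These 3 genes were picked after their values were seen.

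Tagln (ENSMUSG00000032085, chr9:45929619-45936058, minus strand) encodes transgelin, or SM22 alpha, an actin-binding protein of smooth muscle and myofibroblasts. It was at 1.65, 1.70 and 1.80 CPM in SKO and at 2.77, 2.10 and 2.44 CPM in DKO, from 26 to 66 counts. The SKO libraries were very close together and every DKO library was above them. The means were 1.72 ± 0.0765 and 2.44 ± 0.337 CPM (SD, n = 3 each), and the log2 fold change of 0.51 ± 0.22 did not pass (edgeR adjusted p = 0.13). On the annotation, 62.4% of the exon bases of Tagln overlap Gm48529, an antisense gene on the opposite strand. Use of the strand in counting was not given in the sources used here. Tagln reads may have been dropped or shared, and its level is uncertain.

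Vim (ENSMUSG00000026728, chr2:13573927-13582826, plus strand) encodes vimentin, an intermediate filament protein of mesenchymal cells, endothelium and leukocytes. It was at 28.6, 36.3 and 35.8 CPM in SKO and at 59.1, 52.0 and 43.3 CPM in DKO. Every DKO library was above every SKO library. The mean rose from 33.6 ± 4.33 to 51.5 ± 7.92 CPM (SD, n = 3 each), and the log2 fold change was 0.62 ± 0.13, with the smallest SE of the 10 genes (edgeR adjusted p = 0.012). It was called in the main analysis and in all 13 alternatives. Related cytoskeletal genes with broad expression were higher too: Tagln2, transgelin of non-muscle cells, rose from 21.2 to 46.3 CPM (log2 fold change 1.13 ± 0.19, edgeR adjusted p = 0.00807), and Actb, cytoplasmic beta actin, rose from 265 to 342 CPM (0.37 ± 0.10, edgeR adjusted p = 0.0277). The call of Actb was lost when DKO replicate 1 or either of SKO replicates 1 and 2 was left out. Near-identical actin coding sequences can share reads, and Actg1, the other cytoplasmic actin gene, was at only 0.254 to 0.830 CPM, so actin levels carry that uncertainty.

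Of the TGF-beta ligand genes, Tgfb3 was called higher and Tgfb1 was not. Tgfb1 (ENSMUSG00000002603, chr7:25687002-25705077, plus strand) encodes the isoform best known in liver fibrosis, made by many cell types. It was at 9.67, 9.44 and 12.1 CPM in SKO and at 16.6, 11.0 and 11.4 CPM in DKO. DKO replicate 1 was high, and DKO replicates 2 and 3 lay within the SKO range. The means were 10.4 ± 1.45 and 12.99 ± 3.10 CPM (SD, n = 3 each), and the log2 fold change of 0.33 ± 0.17 did not pass (edgeR adjusted p = 0.221) there or in any alternative. Without DKO replicate 1 it was 0.11.

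Tgfb3 (ENSMUSG00000021253, chr12:86056745-86079041, minus strand) encodes an isoform made mostly by mesenchymal cells. Its level was low, at 0.954, 1.15 and 1.07 CPM in SKO and 2.61, 1.66 and 2.23 CPM in DKO, from 15 to 62 counts. Every DKO library was above every SKO library. The mean rose from 1.06 ± 0.0997 to 2.17 ± 0.476 CPM (SD, n = 3 each), and the log2 fold change was 1.03 ± 0.26 (edgeR adjusted p = 0.0232). The call was lost when any library other than DKO replicate 2 was left out, with edgeR adjusted p-values up to 0.0673 and log2 fold changes of 0.87 to 1.18. Whether Tgfb3 changed more than Tgfb1 was not tested. Tgfb2, the other isoform and a member of the list of TGF-beta storage and activation genes, was at 0.549 to 1.07 CPM in SKO and 0.977 to 2.98 CPM in DKO and was not called (edgeR adjusted p = 0.138).

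**Figure D2:**
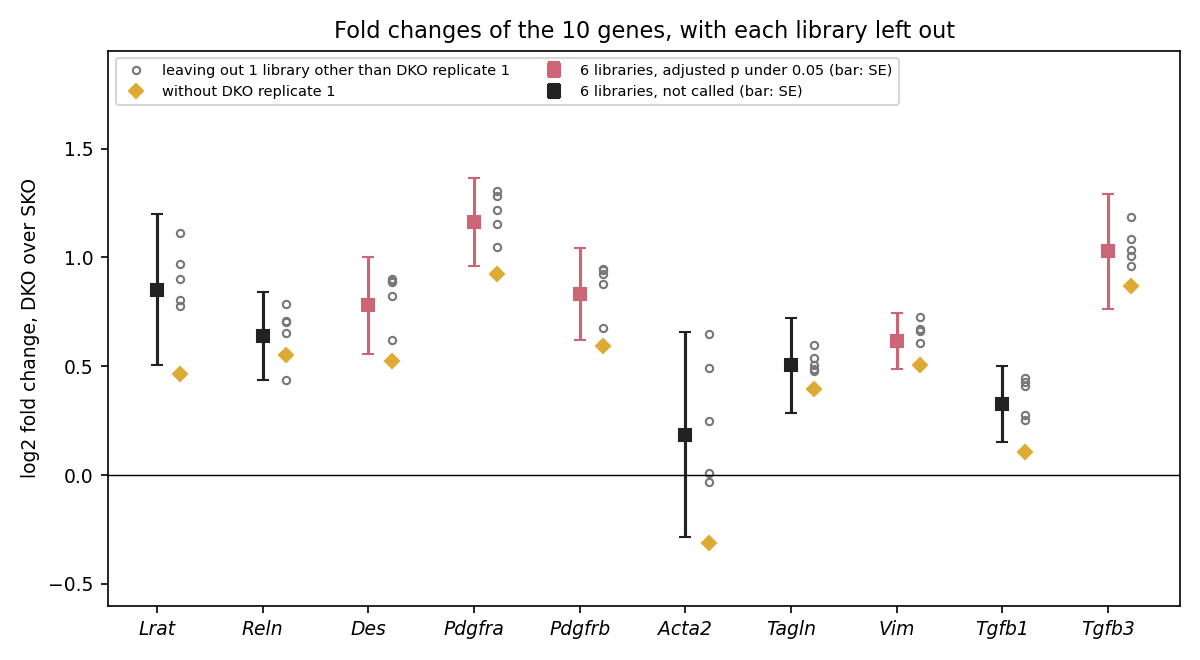
Log2 fold change of DKO over SKO for each of the 10 genes, with squares and SE bars from all 6 libraries, open circles for fits that leave out 1 library and diamonds for the fit without DKO replicate 1. Only Acta2 crosses 0, and the diamond is the lowest point in 9 genes, Reln being the exception.

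Set side by side, 1 of the 3 resting-liver markers and 4 of the other 7 genes were called higher. Over all genes tested the share was 10.3%. The 7 join 2 PDGF receptor genes, 2 of them called, 3 cytoskeletal genes, 1 called, and 2 TGF-beta ligand genes, 1 called. Several of the 7, such as Pdgfrb, Vim and Tgfb1, are not particular to activated cells. The median log2 fold changes of the 3 and of the 7 genes were 0.78 and 0.62. The 7 genes were not separated from the resting markers by size of change, and a difference between the sets was not tested. Lrat, the retinoid-storing enzyme of the resting cell, and Acta2, the actin of the activated one, had the widest spread among DKO libraries relative to their means.

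Levels per exon length (RPKM) put Vim highest in SKO, at 7.07 ± 0.914, above Lrat at 3.83 ± 0.555 (SD, n = 3). These neighbours in the order did not overlap, nor did Lrat and Reln. Reln at 2.49, Tgfb1 at 2.06, Pdgfrb at 1.94, Acta2 at 1.59, Des at 1.31, Pdgfra at 0.955 and Tagln at 0.865 RPKM followed, each overlapping the next over libraries, and Tgfb3 was lowest at 0.313 ± 0.0295, apart from Tagln. In DKO the order again began with Vim at 10.9 ± 1.67 and Lrat at 6.91 ± 3.01 RPKM and ended with Tagln at 1.23 ± 0.169 and Tgfb3 at 0.640 ± 0.141 RPKM. Acta2 went from the sixth place in SKO to the eighth in DKO, below Des and Pdgfra, and among neighbours in DKO only Tagln and Tgfb3 did not overlap.

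Over the 6 libraries, the genes whose log2(CPM + 1) was most like that of Acta2 were Gpn2, Slc27a6, Hexdc, Esrrb and Cd3g, with Pearson's r from 0.972 to 0.990. Cd3g is a T cell receptor subunit gene, and 0 of the 5 belong to the contractile list. Those most like Lrat were Napsa, Evi2a, Akr1b8, Sftpa1 and Ckb, with r from 0.987 to 0.998. With 6 points that share libraries and group means, these values only describe which profiles ran parallel. All 10 of these genes were highest in DKO replicate 1, as Acta2 and Lrat were, which largely follows from the choice by likeness.

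Other genes of stellate identity were counted in a list of 25, of which 24 could be tested. In DKO 10 were called higher and 1 lower, with a median log2 fold change of 0.35 against 0.0059 over all genes. The others were not called. In the main fit 10.3% of all genes tested were called higher and 9.70% lower, the background for this list and those that follow. Calls among all genes moved with the fit as well. Higher calls were 1142 of 14384 genes without SKO replicate 1. They were 674 of 14315 without SKO replicate 2 and 894 of 14392 without SKO replicate 3. Without DKO replicates 1 and 3 in turn they were 981 of 14098 and 942 of 14300. With total counts in place of TMM they were 3859 of 13986. Lower calls were 745 without SKO replicate 2, 890 without SKO replicate 3 and 538 with total counts, against 1357. Adamtsl2, a secreted matrix protein gene, rose from 6.23, 9.99 and 10.9 CPM in SKO to 37.5, 34.2 and 29.1 CPM in DKO (log2 fold change 1.89 ± 0.19, edgeR adjusted p = 0.000584). Rgs5, a regulator of G protein signalling typical of pericytes, rose from 55.6 to 84.1 CPM (0.60 ± 0.09, edgeR adjusted p = 0.00227). The gene called lower was Colec10, a soluble collectin gene, which fell from 30.1 to 16.9 CPM (-0.83 ± 0.09, edgeR adjusted p = 0.000382). Cygb, cytoglobin, was also among those called higher, from 8.20 to 11.4 CPM in SKO and 18.1 to 29.4 CPM in DKO, and was picked after its values were seen. The count of higher genes fell to 5 when DKO replicate 1 or either of SKO replicates 1 and 2 was left out, and to 6 without DKO replicate 3. Gfap, a glial filament gene also used for quiescent stellate cells in rodents, had at most 0.338 CPM in any library and was not tested.

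Other activation and matrix genes were counted in the same way. Of 25 in the list, 21 were tested, 12 were called higher and 1 lower, and the median log2 fold change was 1.08. Loxl1, a collagen and elastin cross-linking enzyme, rose from 1.61 to 6.71 CPM (log2 fold change 2.05 ± 0.28, edgeR adjusted p = 0.00128). Thbs2, thrombospondin 2, rose from 3.60 to 9.95 CPM (1.47 ± 0.20, edgeR adjusted p = 0.00117), and Itga8, an integrin subunit of stellate cells and smooth muscle, rose from 10.5 to 21.3 CPM (1.02 ± 0.12, edgeR adjusted p = 0.000528). The gene called lower was Fn1, fibronectin, which hepatocytes also make in large amounts, with a log2 fold change of -0.97. Without SKO replicate 2, 8 genes were called higher.

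The contractile and smooth muscle list, to which Acta2 is closest in role, had 24 genes, of which 20 were tested, 6 were called higher and 0 lower in edgeR, with a median log2 fold change of 0.38. At an unadjusted p under 0.05, 2 of the 20 were lower, and DESeq2 and limma-voom called 0 lower. Csrp2, a LIM protein linked to stellate cell activation, rose from 38.4 to 44.1 CPM in SKO to 59.1 to 62.2 CPM in DKO (log2 fold change 0.55 ± 0.07, edgeR adjusted p = 0.000941). Csrp1, its close relative, rose by 0.81 ± 0.11 (edgeR adjusted p = 0.00135) and Tpm4, a tropomyosin, by 0.58 ± 0.14 in log2 units (edgeR adjusted p = 0.0175). Only 2 genes were called without SKO replicate 2 or SKO replicate 3, where Tpm4 was lost, and 12 were called with total counts in place of TMM.

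**Figure D3:**
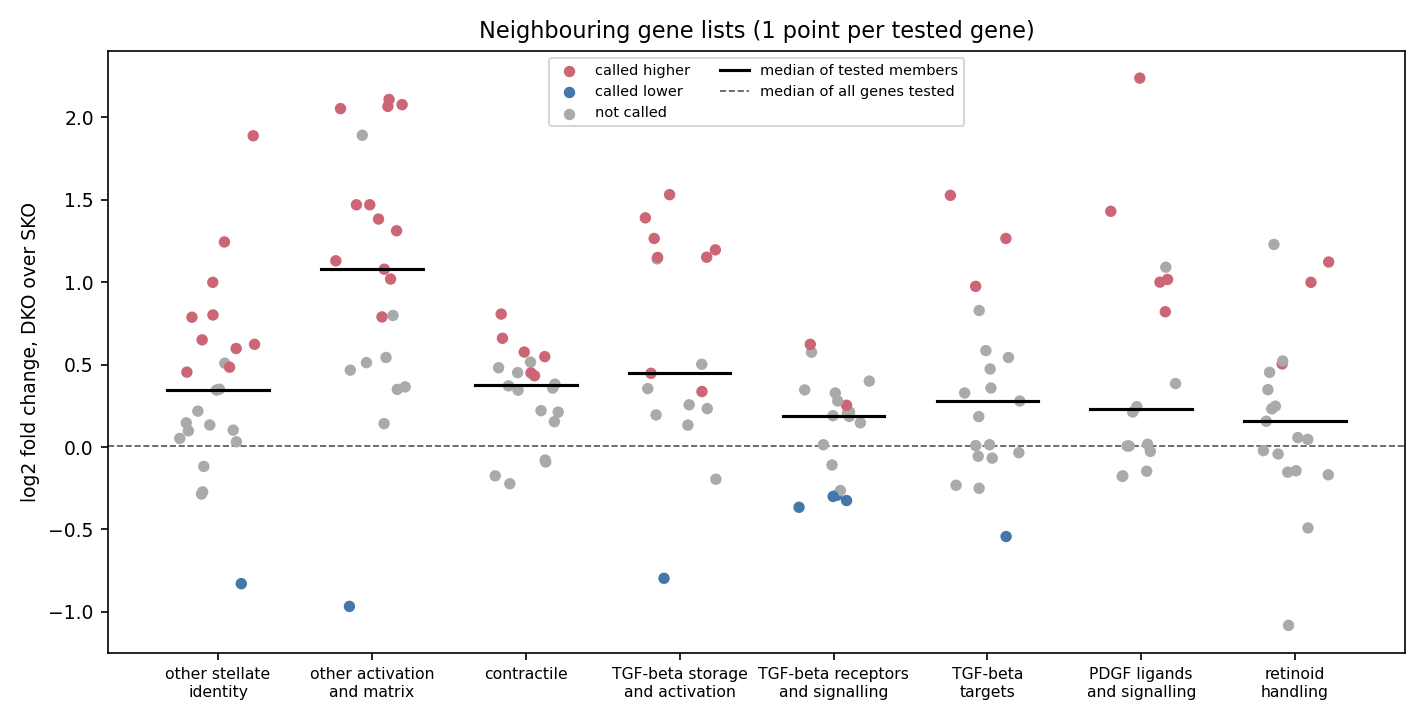
Log2 fold change of DKO over SKO for every tested gene of 8 neighbouring lists, coloured by call, with the list median as a bar and the median of all genes as a dashed line. Activation and matrix genes have the highest median, 1.08, and the medians nearest to the dashed line are those of the retinoid list, 0.16, and the TGF-beta receptor list, 0.19.

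Genes that store and activate TGF-beta, 17 of 18 tested, had 8 called higher and 1 lower with a median log2 fold change of 0.45. Thbs1, thrombospondin 1, an activator of latent TGF-beta, rose from 1.56 to 4.52 CPM (1.53 ± 0.22, edgeR adjusted p = 0.00168). Ltbp1, which tethers latent TGF-beta to matrix, rose from 3.02 to 6.76 CPM (1.15 ± 0.25, edgeR adjusted p = 0.0126). Furin, a protease that cleaves the TGF-beta precursor among many others, fell from 361 to 208 CPM (-0.80 ± 0.09, edgeR adjusted p = 0.000334). Without SKO replicates 1, 2 and 3 in turn, 4, 2 and 3 genes of the list were called higher.

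Receptors and signalling components of the TGF-beta pathway, all 19 tested, had 2 called higher and 4 lower, against 10.3% higher and 9.70% lower over all genes, and a median log2 fold change of 0.19. Smad4, the shared signal transducer, fell by 0.37 ± 0.09 in log2 units (edgeR adjusted p = 0.015), and Smurf2, a ubiquitin ligase of the pathway, fell by 0.32 ± 0.08 (edgeR adjusted p = 0.0195). Bambi, a decoy receptor, rose by 0.62 ± 0.18 (edgeR adjusted p = 0.0379). The call of Smad4 was also lost without DKO replicate 3. Without SKO replicate 2 or SKO replicate 3 there were 0 calls in either direction, without SKO replicate 1 or DKO replicate 1 there were 0 higher, and with total counts there were 10 higher and 0 lower. Of 19 TGF-beta target genes, 3 were called higher and 1 lower, with a median of 0.28, and 3 of 19 is near the 10.3% called higher over all genes. Pmepa1, a target that feeds back on the pathway, rose from 1.77 to 5.10 CPM (1.53 ± 0.29, edgeR adjusted p = 0.00591). Bhlhe40, a transcriptional repressor, fell by 0.54 ± 0.13 in log2 units (edgeR adjusted p = 0.0168) and was not called with total counts. Snai1, a transcription factor of mesenchymal transition, rose by 0.98 ± 0.27 (edgeR adjusted p = 0.0315) and was not called in DESeq2 or when any library other than DKO replicate 3 was left out. Without any one of the SKO libraries 1 target gene was called higher.

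Among 16 PDGF ligands and signalling genes, all tested, 5 were called higher and 0 lower, with a median log2 fold change of 0.23. DESeq2 and limma-voom also called 0 lower, and 2 were lower at an unadjusted p under 0.05. Pdgfc, a ligand of the alpha receptor, rose from 4.17 to 8.29 CPM (edgeR adjusted p = 0.0138), and Src, a kinase that acts after receptor activation, rose from 3.03 to 8.12 CPM (1.43 ± 0.22, edgeR adjusted p = 0.00207). Plat, tissue plasminogen activator, which cleaves the PDGF-C precursor, rose by 2.24 ± 0.53 in log2 units (edgeR adjusted p = 0.0208) and was lost without SKO replicate 1 or SKO replicate 3. Pdgfb, a ligand of the beta receptor, was at 1.41 to 1.65 CPM in SKO and 2.44 to 4.29 CPM in DKO, and Pdgfa was not called (edgeR adjusted p = 0.311). These ligands were picked after their values were seen. Without SKO replicate 1 the list had 2 higher calls, and with DKO replicate 1 or either of SKO replicates 2 and 3 left out it had 3.

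Genes that handle retinoids beside Lrat, 19 of 23 tested, had 3 called higher and 0 lower in edgeR, with 2 lower at an unadjusted p under 0.05. Over all genes 10.3% were called higher and 9.70% lower, so edgeR calls in this list, taken in both directions, were no more frequent than that background. This did not hold in the other 2 methods. DESeq2 called 5 higher and 1 lower, against 1394 higher and 1351 lower of all 13986 genes. Calls in limma-voom were 4 higher and 0 lower, against 1284 higher and 1281 lower of all genes. Lpl, lipoprotein lipase, rose by 1.12 ± 0.28 (edgeR adjusted p = 0.0401) and Aldh1a1, a retinaldehyde dehydrogenase, by 0.50 ± 0.15 in log2 units (edgeR adjusted p = 0.0433). The call of Lpl was lost when any library other than DKO replicates 1 and 2 was left out, and that of Aldh1a1 when any library other than SKO replicate 1 was left out. Without SKO replicate 3 or DKO replicate 3 the list had 1 higher call.

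Markers of other cell types that may express these genes, or that changed beside them, were summed per library. Portal fibroblast markers, which share Pdgfra and Vim with stellate cells, summed to 132 to 158 CPM in SKO and 196 to 260 CPM in DKO, with 7 of 11 tested genes called higher, 2 of them without SKO replicate 2 or SKO replicate 3 and 4 without DKO replicate 1. Gsn, Mfap4 and Cd34 had the smallest p-values of this list, with log2 fold changes of 0.65, 2.26 and 0.94, and Cd34 was lost without SKO replicate 2 or SKO replicate 3. Macrophage markers summed to 716 to 904 CPM in SKO and 1006 to 1537 CPM in DKO, with 12 of 18 called higher, and the smallest p-values were those of Gpnmb at a log2 fold change of 4.73 ± 0.36, Trem2 at 2.58 and Cx3cr1 at 2.38. DESeq2 called 17. Without SKO replicate 2 or SKO replicate 3, 8 were called. Macrophages express Vim and Tgfb1 as well.

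Cholangiocyte markers summed to 98.5 to 110 CPM in SKO and 161 to 257 CPM in DKO, with 6 of 13 called higher and 1 lower. Spp1, osteopontin, had the smallest p-value of the list, at a log2 fold change of 1.27, and 1 gene was called higher without SKO replicate 2 or SKO replicate 3. Lymphocyte markers summed to 20.4 to 28.4 CPM in SKO and 28.7 to 45.5 CPM in DKO, with 0 of 11 called in edgeR, 2 higher at an unadjusted p under 0.05 and 1 higher in DESeq2. The pan-leukocyte gene Ptprc was at 13.5 to 19.5 CPM in SKO and at 19.4 to 32.2 CPM in DKO and did not pass (edgeR adjusted p = 0.0683). Endothelial markers, from the neighbours of stellate cells in the sinusoid, summed to 870.5 to 881 CPM in SKO and 853 to 898 CPM in DKO, with Vwf alone called higher of 14, a call lost in DESeq2 and when any library other than SKO replicate 1 was left out. Mesothelial markers summed to 8.06 to 14.8 CPM in SKO and 8.10 to 11.9 CPM in DKO, with only Krt19, shared with the cholangiocyte list, called, a call lost when DKO replicate 1 or either of SKO replicates 2 and 3 was left out. Hepatocyte markers summed to 100132 to 127315 CPM in SKO and 65436 to 80016 CPM in DKO, with 7 of 14 called lower in edgeR, among them Serpina1c, Fga and Alb. Alb alone, at 53112 to 75575 CPM in SKO and 31392 to 41510 CPM in DKO, made up a large part of these sums. In that list 0 were called higher, also at an unadjusted p under 0.05 and in DESeq2 and limma-voom, but 2 were called higher without DKO replicate 1. Without SKO replicate 2 the lower calls fell to 2, and Alb was not among them (edgeR adjusted p = 0.0503). The part of portal fibroblasts, macrophages, cholangiocytes and any lower hepatocyte share in the values of the 10 genes was not tested.

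**Figure D4:**
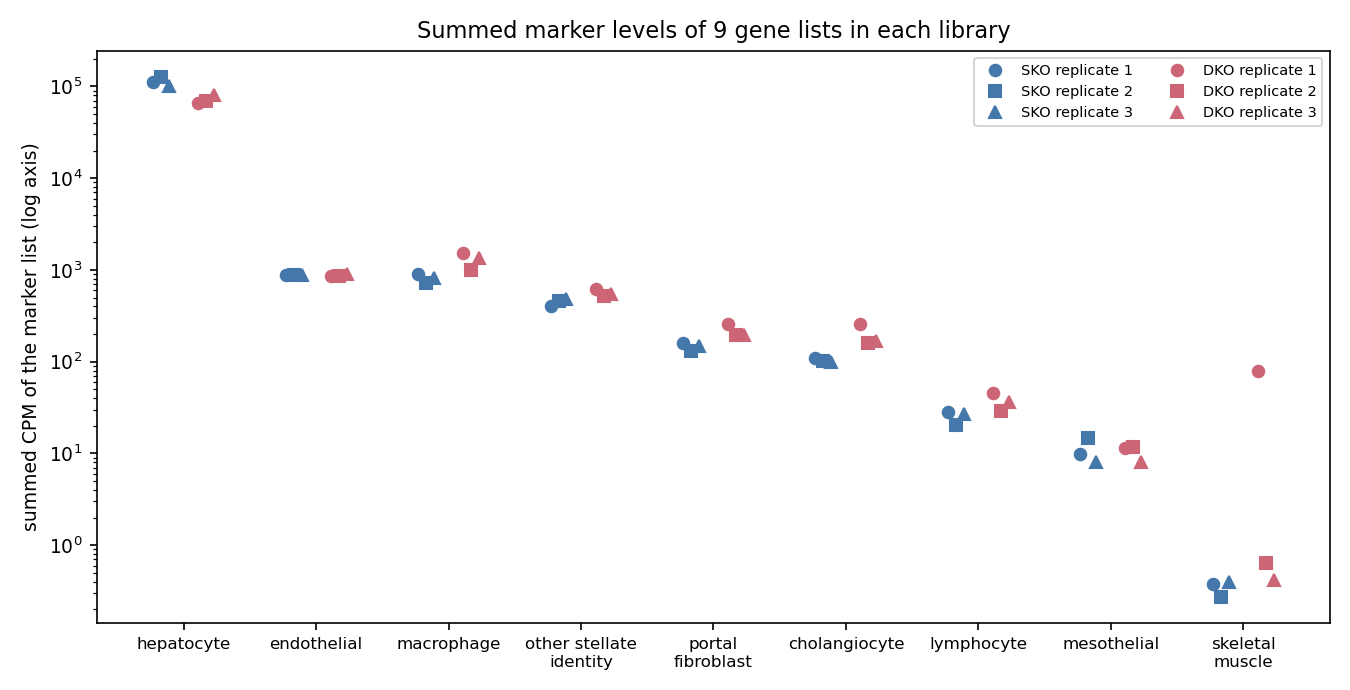
Summed CPM of 9 marker lists in each library on a log axis, SKO in blue and DKO in red, with a symbol for each replicate. Endothelial sums stay at 853 to 898 CPM in all libraries, other stellate identity genes sum to 400 to 479 CPM in SKO and 524 to 616 CPM in DKO, and skeletal muscle genes stand out in DKO replicate 1 at 78.7 CPM.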

How the data were processed

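Mouse liver RNA (3 SKO and 3 DKO libraries) was extracted with Trizol and prepared with standard Illumina methods, per the labels. The authors deposited unnormalised read counts per Ensembl gene for each library. Tools in the submitters' processing notes are cutadapt 1.13, STAR, HTSeq 0.6.1p1, DESeq2 and the build mm10 (settings, annotation release and strand not given in the sources used here). Symbols and coordinates came from GENCODE M21, which matched 54165 identifiers and left 67 unmatched, and 27528 genes had no counts. Groups follow the genotype label, and replicate numbers follow accession order. Titles of 3 DKO libraries and 1 SKO library carry 2 numbers of unstated meaning, and pooled animals would narrow the spread.

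After filterByExpr, counts were tested with edgeR 4.0.16 under R 4.3.3 (TMM scaling, robust glmQLFit, glmQLFTest, 4 residual degrees of freedom). Benjamini-Hochberg adjustment covered all 13986 genes tested, and calls needed an adjusted p under 0.05. The TMM scaling factor ran from 0.903 to 0.951 for SKO and from 1.05 to 1.13 for DKO. Biological variation between libraries had a median coefficient of 0.109. RPKM divides CPM by the length of merged exons. Limits from counts reflect counting error alone. Alternatives were upper-quartile and RLE factors, total counts alone, no filter on low counts, DESeq2 1.42.0, limma-voom 3.58.1, no robust estimation and each library left out. The code was tested on simulated counts.

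The members and the 16 other gene lists, with 274 symbols of which 11 are in more than 1 list and 1 was matched by another symbol, were chosen with earlier results of these data known. The text names all 10 members, Xbp1, Nr1h4, from each list the 3 called genes of smallest p or, where none was called, the 2 of highest mean CPM, and the 5 tested genes most like Acta2 and like Lrat. Genes named after their values were seen are given as such. Some genes that the rule names are not reported here.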

Additional observations from a re-analysis of the deposited data

How the results depend on the processing

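Over the 13 alternatives, 108 of the 130 values of the 10 genes kept their direction and their side of the threshold, 12 kept the direction and lost the call, 8 gained a call and 2, both of Acta2, changed sign. Leaving out 1 library gave 2 to 6 called members and log2 fold changes of -0.31 to 0.65 for Acta2. Among all genes the same fits called 1419 to 2739 genes against 2803, with 674 to 1569 higher against 1446 and 745 to 1200 lower against 1357. With total counts alone 4397 genes were called, 3859 higher and 538 lower, and the all-gene median log2 fold change moved from 0.0059 to 0.23. The share of calls that were higher was 51.6% with TMM, 65.3% with upper-quartile factors and 87.8% with total counts, which called 7 members, Reln and Tagln being added. The log2 fold change of Nr1h4 was 0.044 with upper-quartile factors, 0.20 with total counts and -0.066 to 0.026 with 1 library left out. With 1 library left out, log2 fold changes spanned -0.050 to 0.17 for Gpn2, -0.27 to 0.51 for Slc27a6, -0.015 to 0.21 for Hexdc, -0.051 to 0.31 for Esrrb and -0.15 to 0.48 for Cd3g. The cause was not tested.

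Of 416 list counts under alternatives, 79 moved by over 1.5 times, 53 of them with 1 library left out. With total counts the higher calls were 12 against 6 for contractile genes, 7 against 3 for TGF-beta targets, 9 against 5 for PDGF genes, 8 against 3 for retinoid genes, 6 against 1 for endothelial markers, 2 against 0 for lymphocyte markers and 10 against 2 for TGF-beta receptor genes, whose lower calls were 0 against 4. For those receptor genes higher calls were 4 with no filter, 1 with RLE factors, DESeq2 or no robust estimation and 0 in limma-voom, and lower calls were 2 with upper-quartile factors or DESeq2. Higher calls of TGF-beta targets were 6 with no filter, those of retinoid genes 5 with upper-quartile factors or DESeq2, and those of endothelial markers 0 in DESeq2. No paired analysis was possible because the labels give no replicate numbers that the groups share. Acta2, Tagln and Tgfb3 had 15 to 146 counts per library, which limits their precision.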
